A study of Homo sapiens with 9 samples.

Results

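Selenoprotein transcripts were described in AGS cells, an established human gastric cancer line, with and without stable knock-down of HIF-1α, a subunit of the transcription factor HIF-1 whose amount is set by oxygen. The genes were SELENOP, GPX1, GPX2, GPX4, TXNRD1, TXNRD2, SELENOW, SELENOK, SELENOS and SELENOT. They were 10 of 20078 genes named on the arrays and had 19 probes, found by gene symbol after older names (SEPP1, SEPW1, SELK, SELS and SELT) had been brought up to date. The genes were selected on these data, with their signals, detection and differences between HIF- and SCR cells already seen, so the differences between the groups of these 10 genes are given as a description, with no test.

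HIF- cells carried a lentiviral short hairpin RNA against HIF1A and SCR cells a scrambled hairpin, so that both groups were stably transduced. Both were kept in the same routine DMEM culture with serum and antibiotics, and neither the oxygen level of these cultures nor whether the lines were clones or mixed populations is given in the sources used here. There were 3 replicates per group on Illumina BeadChips. For replicates 1 and 2, HumanRef-8 chips carried 1 array of each group, and for replicate 3 a HumanHT-12 chip carried 2 SCR and 3 HIF- technical arrays. Both groups of a replicate shared a BeadChip. The methods call the replicates independent experiments, and the labels call the further arrays of replicate 3 technical.

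A selenoprotein contains selenocysteine, an amino acid with selenium in place of the sulfur of cysteine. It is inserted at a UGA codon, otherwise a stop signal, when a stem-loop in the messenger RNA recruits the insertion machinery. SELENOP is a secreted protein with many selenocysteines that carries selenium from the liver to other tissues, where receptors such as LRP8 take it up. The glutathione peroxidases reduce hydrogen peroxide (GPX1), hydroperoxides in the gut epithelium (GPX2) and lipid peroxides in membranes (GPX4). The thioredoxin reductases keep thioredoxin reduced in the cytosol (TXNRD1) and in mitochondria (TXNRD2). SELENOK, SELENOS and SELENOT are proteins of the endoplasmic reticulum (ER) membrane, and SELENOW is a small cytosolic thiol protein.

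HIF-1 binds DNA at a core of ACGTG or GCGTG, and NRF2, which controls many antioxidant genes, at an element with the core TGACNNNGC. These letters were searched on both strands of the promoters of all 10 genes, from 250 bases before to 50 after the start site (RefSeq, GRCh38.p14, 15 promoters). The promoters of 3 genes are shown, that of SELENOP because its probe had the largest gap between the groups, and those of GPX1 and SELENOS because ACGTG lay close to their start. Capitals mark the matches.
SELENOP promoter: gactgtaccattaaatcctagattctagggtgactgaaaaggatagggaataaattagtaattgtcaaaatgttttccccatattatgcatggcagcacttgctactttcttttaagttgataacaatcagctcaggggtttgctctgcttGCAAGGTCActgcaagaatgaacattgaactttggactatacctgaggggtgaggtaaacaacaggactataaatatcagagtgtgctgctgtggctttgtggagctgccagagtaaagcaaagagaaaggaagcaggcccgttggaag
GPX1 promoter: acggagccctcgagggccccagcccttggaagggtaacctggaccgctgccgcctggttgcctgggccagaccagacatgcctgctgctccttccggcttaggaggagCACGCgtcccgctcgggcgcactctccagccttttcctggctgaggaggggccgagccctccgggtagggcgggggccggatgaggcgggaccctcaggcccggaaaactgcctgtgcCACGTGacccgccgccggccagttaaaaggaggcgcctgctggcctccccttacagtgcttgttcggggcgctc
SELENOS promoter: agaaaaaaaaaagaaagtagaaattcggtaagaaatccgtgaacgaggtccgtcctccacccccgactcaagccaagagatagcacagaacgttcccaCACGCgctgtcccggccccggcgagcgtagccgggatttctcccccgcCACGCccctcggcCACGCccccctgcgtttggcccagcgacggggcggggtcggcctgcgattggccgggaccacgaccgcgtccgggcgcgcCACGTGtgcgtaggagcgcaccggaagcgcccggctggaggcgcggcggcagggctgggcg
The SELENOP promoter lies on the minus strand at chr5:42811843-42812142 and held neither HIF core. Its only match was to TGACNNNGC on the opposite strand, at -99 from the start site. The GPX1 promoter, on the minus strand at chr3:49358304-49358603, held ACGTG at -23 and -24, which is CACGTG read on each strand, and GCGTG on the opposite strand at -142. SELENOS, on the minus strand at chr15:101277436-101277735, held the same double match at -10 and -11 and GCGTG on the opposite strand at -152, -104 and -91.

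Among the 10 genes, ACGTG was present in the promoters of 3 (GPX1, GPX4 and SELENOS) and GCGTG in those of 4 (these and TXNRD1). TGACNNNGC was present for 4 (SELENOP, GPX2, TXNRD1 and SELENOK). Counted by promoter, ACGTG was in 4 of 15, GCGTG in 6 and TGACNNNGC in 5. The GPX4 promoters at chr19:1103744-1104043 and chr19:1103807-1104106 overlap, so their common ACGTG and GCGTG were counted for each. Over all 35116 promoters of the table, 21.4% held ACGTG, 36.5% GCGTG, 48.4% either of the HIF cores and 13.3% TGACNNNGC. A match is a run of letters and not a measured binding site.

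Signals are given as normalized log2 values after background correction, so a difference of 1 is a doubling of signal. A probe was called detected on an array when its deposited detection p-value was under 0.01. Signals of different probes were not compared, since probes differ in their response. Of the 19 probes, 15 were on both array versions and 4 on HumanHT-12 alone. Of the 15, 11 were detected on all 9 arrays, and the shared probes of SELENOP and SELENOT on none. The epithelial markers KRT8, KRT18, KRT19 and EPCAM were detected on all 9 arrays. Among 8 markers of leukocytes, endothelium, fibroblasts and hepatocytes, PTPRC, CDH5, COL3A1 and ALB were detected on none, CD14 on 1, PECAM1 on 3, COL1A1 on 8 and APOA2 on 9. HIF1A, the target of the hairpin, fell by 2.31 in log2 signal (SE 0.16, 3 replicates in each group, limma adjusted p = 0.0044 with the replicate as a block). It was lower in HIF- cells under all 13 alternatives, and 5 of them lost the call, among them leaving out replicate 1 (-2.13, limma adjusted p = 0.0876).

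SELENOP showed a signal above background in SCR cells of replicate 3 and none in HIF- cells of that replicate. This came from a probe present on HumanHT-12 alone (ILMN_1785071). The SCR arrays gave log2 signals of 6.06 and 6.21, both detected. The HIF- arrays gave 4.28, 4.44 and 4.70, with detection p-values of 0.574, 0.195 and 0.0273. The arrays of the groups did not overlap, and the lowest SCR array lay 1.36 above the highest HIF- array. The HIF- arrays thus gave only an upper limit. With this background correction (offset 16) and each of them set to its lowest signal of a detected probe, SELENOP was at least 2.49-fold lower in HIF- cells (a log2 bound of 1.31), and the measured means of 6.13 and 4.47 differed by -1.66.

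Among the 22798 probes present on HumanHT-12 alone, 10 (0.0439%) were lower in HIF- cells by 1 or more without overlap and detected on both SCR arrays, and 10 (0.0439%) met the mirror rule. The 5 arrays are technical arrays of 1 replicate on 1 BeadChip, so the difference has no replicate check and no test. With a normexp offset of 50 in the background correction the measured difference was -0.89, smaller than that bound, so the bound rests on the smaller offset. The other SELENOP probe (ILMN_2204826), on both versions, was not detected on any of the 9 arrays, the SCR arrays of replicate 3 included. Its signal was 4.14 in SCR and 4.17 in HIF- cells of replicate 1 and 4.13 in both groups of replicate 2. The SCR arrays of replicate 3 gave 4.36 and 4.37, and the HIF- arrays gave 4.22 to 4.39. The only SELENOP probe measured in replicates 1 and 2 thus gave no value above background in either group. It gave none on the SCR arrays of replicate 3 either, where the other probe was detected. It therefore cannot show whether SELENOP was present in replicates 1 and 2. The part of the transcript that each probe covers was not examined here.

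**Figure D1:**
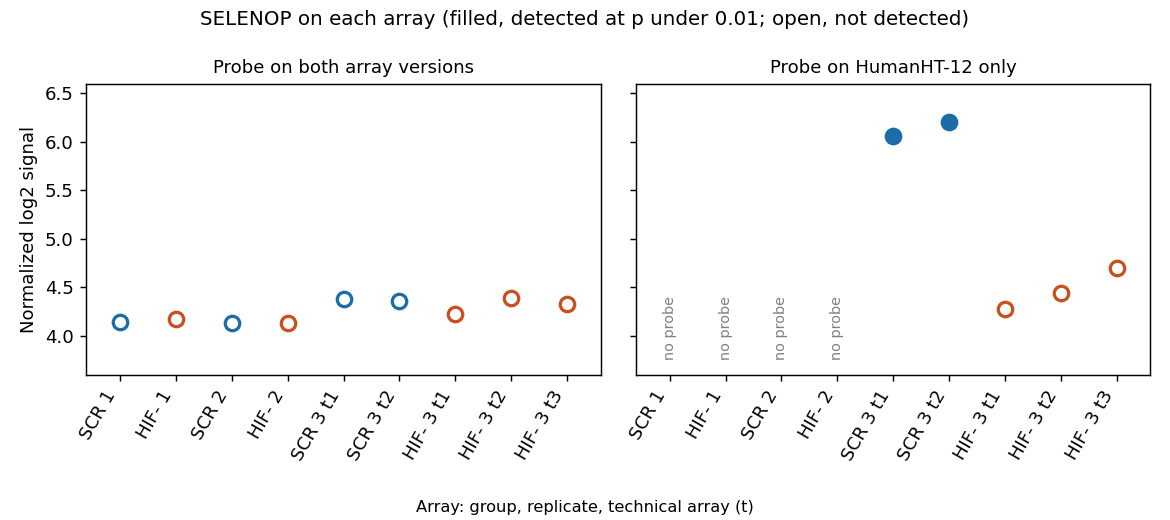
Normalized log2 signal (y axis) of the SELENOP probe on both array versions (left) and of the probe on HumanHT-12 alone (right) on each array (x axis), with SCR arrays in blue and HIF- arrays in orange, filled where detected. The right panel has 2 filled SCR points at 6.06 and 6.21 and 3 open HIF- points between 4.28 and 4.70, and every point on the left is open.

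In the liver SELENOP transcription is known to be driven by HNF4A, by FOXO factors and by the coactivator PGC-1α (PPARGC1A). PPARGC1A differed by -0.87, -0.91 and 0.03 in replicates 1 to 3 (adjusted p = 0.547 from limma) and was detected on 4 of 9 arrays. FOXO1 and FOXO3 did not pass limma either (adjusted p = 0.857 and 0.928), and HNF4A was not analysed here. The hepatocyte marker APOA2 was 1.07 higher in HIF- cells (standard error 0.21, n = 3, adjusted p = 0.161 from limma), with differences of 1.72, 0.73 and 0.77, and passed with scaling to a common median (adjusted p = 0.0361) and by a rank rule rebuilt from the study's methods. The APOA2 arrays of replicate 3 overlapped, with 8.36 and 9.52 for SCR and 8.58, 9.94 and 10.59 for HIF-. ALB, which defines hepatocytes, was not detected. By its mean difference APOA2 went in the direction opposite to SELENOP, and its part in the SELENOP difference was not tested. In bulk RNA, fewer cells with a transcript and less of it per cell cannot be told apart.

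Of the remaining 9 genes, 8 were in the fit across all genes, each with its brightest shared probe, and all 8 of these probes were detected on all 9 arrays. At an adjusted p under 0.05, limma called 14 of 12195 genes and unnamed probes (0.115%), 9 of them higher in HIF- cells (0.0738%) and 5 lower (0.041%). The count among the 8 genes was 0, also at an unadjusted p under 0.05, which 416 higher and 504 lower genes passed. The rebuilt rank rule, which ranks fold changes within each replicate, called 93 (0.763%), with 48 higher (0.394%) and 45 lower (0.369%), and 0 of the 8. Since the genes were chosen with these values known, the counts are descriptive. The 8 mean differences lay between -0.24 (GPX2) and 0.29 (GPX1).

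GPX1, the peroxidase found in nearly every cell, had the highest mean difference of the 8, most of it from replicate 1. Its signal was 10.63 in SCR and 11.46 in HIF- cells of replicate 1, and 11.25 and 11.28 in replicate 2. The SCR arrays of replicate 3 gave 10.51 and 10.31 and the HIF- arrays 10.58, 10.47 and 10.18. HIF- was above SCR by 0.83 in replicate 1 and by 0.03 in replicate 2, and the arrays of replicate 3 overlapped. The mean difference of 0.29 had an SD of 0.47 over the replicates (n = 3), larger than the mean. Another GPX1 probe was detected on 2 of 9 arrays.

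GPX2, the peroxidase of the gastrointestinal epithelium, had the lowest mean difference. Its signal was 12.21 in SCR and 12.25 in HIF- cells of replicate 1, and 12.88 and 12.54 in replicate 2. In replicate 3 the SCR arrays gave 12.21 and 11.93 and the HIF- arrays 11.40, 11.82 and 11.74. HIF- cells were lower in replicates 2 and 3 and 0.04 higher in replicate 1. The mean difference was -0.24 (SD 0.24, n = 3). The technical arrays of replicate 3 did not overlap between the groups, which was also so for TXNRD2 and SELENOS. Of all genes, 26.4% did not overlap there.

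GPX4, which protects membranes from lipid peroxidation, was above SCR in HIF- cells in every replicate with its brighter probe, though by little. Its signal was 12.22 in SCR and 12.56 in HIF- cells of replicate 1, and 12.83 and 12.86 in replicate 2. For replicate 3 the values were 12.03 and 11.91 on SCR arrays and 12.16, 11.93 and 11.86 on HIF- arrays. The replicate 3 arrays overlapped, and the difference was 0.34 in replicate 1 against 0.03 and 0.01 in the others (mean 0.13, SD 0.18, n = 3). The second GPX4 probe (ILMN_1734353) gave 0.59, 0.16 and -0.00, so both probes had their largest difference in replicate 1.

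TXNRD1, the cytosolic thioredoxin reductase, changed sign between replicates. Its signal was 9.16 in SCR and 8.999 in HIF- cells of replicate 1, and 8.99 and 9.14 in replicate 2. In replicate 3 the SCR arrays gave 7.98 and 8.11 and the HIF- arrays 8.26, 8.04 and 8.36, which overlapped. The differences of -0.16, 0.15 and 0.18 gave a mean of 0.06 (SD 0.19, n = 3). A second probe (ILMN_2324421) had the same sign as the first in every replicate, with -0.35, 0.36 and 0.07.

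TXNRD2, the mitochondrial reductase, was below SCR in HIF- cells in all 3 replicates. Its signal was 8.38 in SCR and 8.31 in HIF- cells of replicate 1, and 8.62 and 8.57 in replicate 2. Replicate 3 had 8.33 and 8.11 on its SCR arrays and 7.98, 7.86 and 7.86 on its HIF- arrays. The difference was -0.06, -0.05 and -0.32 (mean -0.14, SD 0.15, n = 3), with most of it in replicate 3. GPX4 and TXNRD2 were the only 2 of the 8 with the same sign in all 3 replicates, a pattern that 31.9% of all genes showed. The 3 SCR and 3 HIF- samples overlapped for each of the 8 genes, against 2.42% of all genes without overlap.

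SELENOW, the small thiol protein, had the widest spread of the 8. Its signal was 8.74 in SCR and 9.38 in HIF- cells of replicate 1, and 9.97 and 9.68 in replicate 2. In replicate 3 the SCR arrays gave 8.13 and 7.79 and the HIF- arrays 8.02, 7.87 and 7.62. HIF- cells were 0.64 above SCR cells in the first pair and below them in the others (-0.29 and -0.12), and the mean of 0.08 had an SD of 0.49 (n = 3).

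Among the ER proteins, SELENOK, a cofactor of protein palmitoylation, had a signal of 7.998 in SCR and 8.61 in HIF- cells of replicate 1, and 8.48 and 8.42 in replicate 2. In replicate 3 the SCR arrays gave 7.46 and 7.59 and the HIF- arrays 7.36, 7.65 and 7.50. The groups differed by 0.61 in replicate 1 and by -0.06 and -0.02 in the others (mean 0.18, SD 0.38, n = 3).
SELENOS, which helps to draw misfolded proteins out of the ER, had a signal of 10.53 in SCR and 10.83 in HIF- cells of replicate 1, and 10.80 and 10.82 in replicate 2. Replicate 3 had 9.95 and 9.76 on its SCR arrays and 9.70, 9.68 and 9.60 on its HIF- arrays. HIF- cells were higher in replicate 1 and lower without overlap in replicate 3, with a mean difference of 0.04 (SD 0.25, n = 3). A second SELENOS probe (ILMN_1803744) had the same signs, with 0.42, 0.23 and -0.11, and another was detected on 5 of 9 arrays.
SELENOT, an ER oxidoreductase, was measured above background only by a probe on HumanHT-12 alone (ILMN_1746368). In replicate 3 its signals were 7.71 and 7.58 for SCR and 7.50, 7.47 and 7.74 for HIF-. The groups overlapped, with a mean difference of -0.08 on technical arrays. Further probes of TXNRD2 and SELENOK on HumanHT-12 alone were not detected on any of their 5 arrays.

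**Figure D2:**
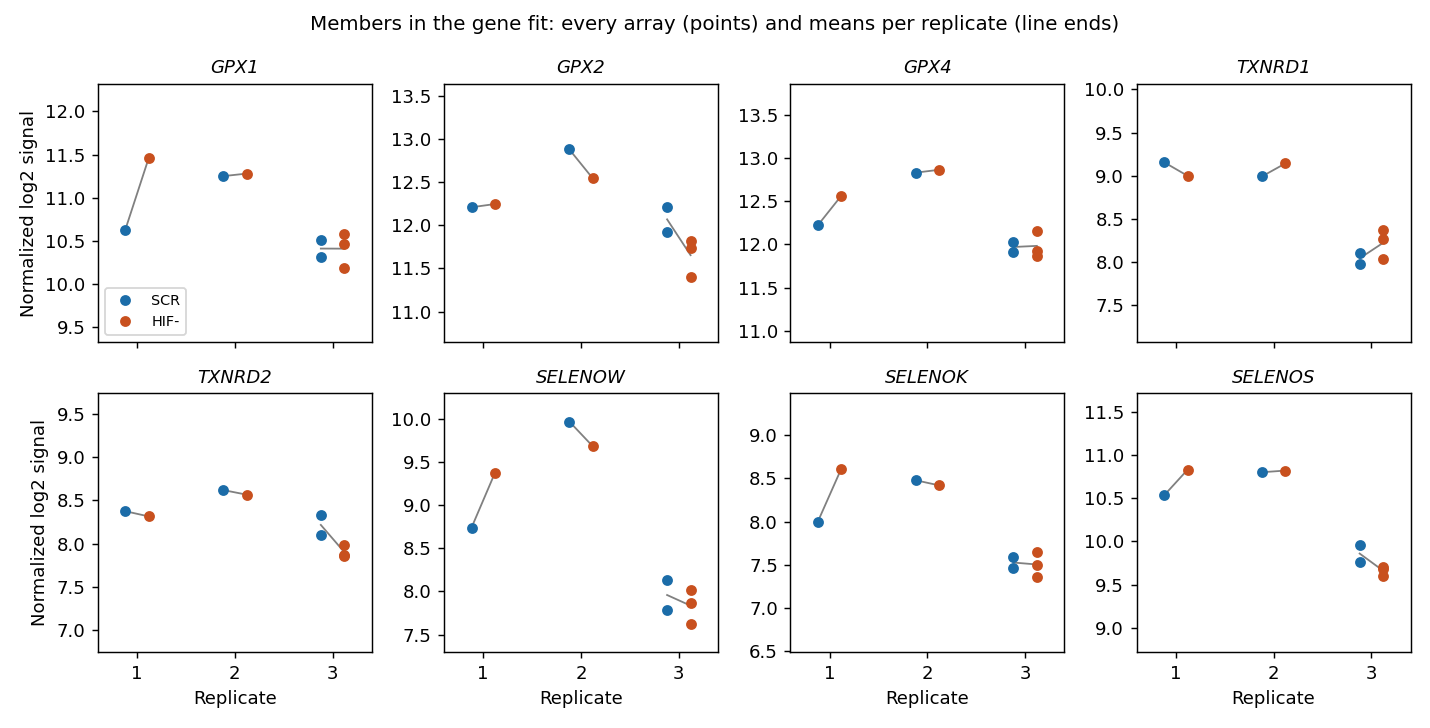
Normalized log2 signal (y axis, a span of the same width in every panel) of the brightest shared probe of 8 selenoprotein genes in each replicate (x axis), with every array as a point, SCR in blue and HIF- in orange, and a line between the group means of a replicate. The lines of SELENOW and SELENOK go up from SCR to HIF- in replicate 1 alone, and that of GPX1 by 0.83 there and by 0.03 in replicate 2 (replicate 3 is on another array version and was normalized apart).

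Over the 8 genes the median difference was 0.32, -0.02 and -0.07 for replicates 1 to 3. The medians of all genes were -0.02, -0.01 and -0.01. In replicate 1, 6 of the 8 genes were above 0, in replicate 2 there were 4 and in replicate 3 there were 2. Of all genes, 47.1%, 48.7% and 48.7% were above 0. The median was thus above 0 in replicate 1 and below it in the others. The median of the mean differences was 0.07, against -0.01 over all genes, and -0.07 without replicate 1.

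**Figure D3:**
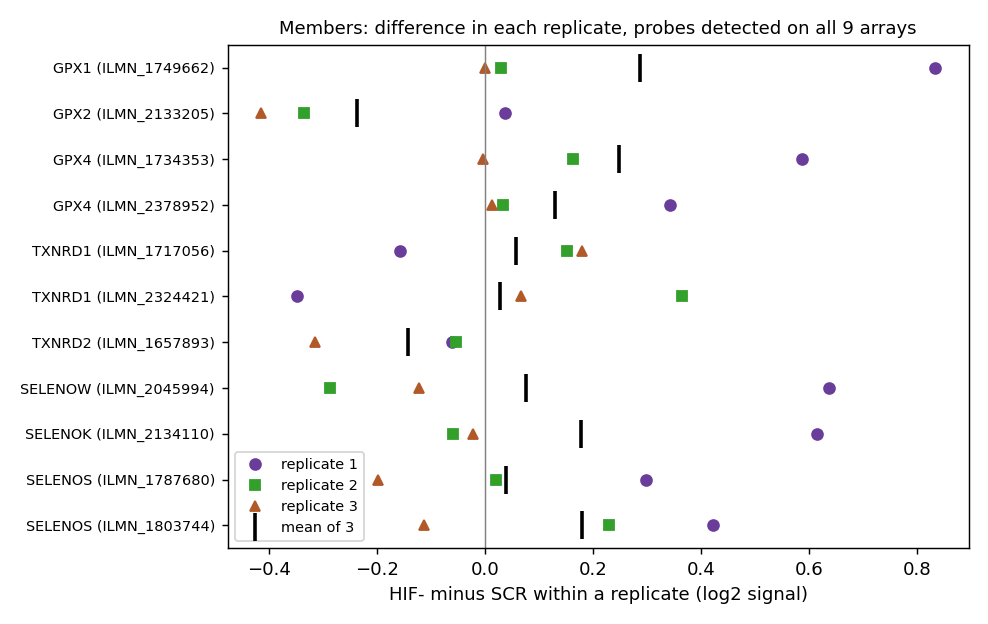
Difference of HIF- and SCR cells in log2 signal (x axis) within replicate 1 (circles), 2 (squares) and 3 (triangles) for each probe of the selenoprotein genes detected on all 9 arrays (y axis), with the mean as a bar. Replicate 1 gave the highest value for 8 of the 11 probes, up to 0.83 for GPX1, and the 2 TXNRD1 probes had their lowest value there.

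The genes that serve selenoproteins were taken as a list of 15 for selenocysteine synthesis and insertion and for selenium supply, all of them on the arrays. Of these, 14 were in the fit and 9 detected on all 9 arrays. No gene of the list passed limma at an adjusted p under 0.05 (0 of 14). At an unadjusted p under 0.05, 1 of the 14 was higher and 2 were lower, against 416 higher and 504 lower of all 12195. The rank rule called 1 lower, LRP8, beside 45 lower among all genes (0.369%). The median difference of the list was -0.15, against -0.01 over all genes, and 6 of the 14 genes were below 0 in all 3 replicates and 2 above. Of all 12195, 2125 were below 0 in all 3 and 1765 above.
LRP8, a receptor that takes up SELENOP in tissues such as brain, had the largest mean difference of the list, -0.58 (standard error 0.14, n = 3, adjusted p = 0.304 from limma). Its signal was 10.68 in SCR and 9.84 in HIF- cells of replicate 1, and 9.91 and 9.41 in replicate 2. In replicate 3 the SCR arrays gave 9.37 and 9.58 and the HIF- arrays 8.88, 9.10 and 9.24. HIF- cells lay below SCR cells within each replicate. The technical arrays of replicate 3 did not overlap, which held for 26.4% of all genes. Across replicates the groups overlapped, with 9.48 in SCR cells of replicate 3 and 9.84 in HIF- cells of replicate 1. A second LRP8 probe (ILMN_2302654), detected on 7 of 9 arrays, differed by -1.06, 0.61 and -0.26, so that the probes disagreed in replicate 2.

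PSTK, the kinase that phosphorylates seryl-tRNA on the way to selenocysteine, was above SCR in HIF- cells by 0.58, 0.37 and 0.28, with a mean of 0.41 (adjusted p = 0.490 from limma). It was detected on 8 of 9 arrays. SEPHS1, a relative of the selenophosphate synthetase that lacks selenocysteine, differed by -0.52, -0.37 and -0.16, with a mean of -0.35 (adjusted p = 0.583 from limma). SCLY, which releases selenium from selenocysteine, and SECISBP2L, a relative of the protein that binds the stem-loop, had mean differences of -0.27 and -0.25 (limma adjusted p = 0.682 and 0.684). SCLY was detected on 7 of 9 arrays. The elongation factor of selenocysteine (EEFSEC) and the stem-loop binding protein SECISBP2 had mean differences of 0.06 and -0.15 and did not pass either (limma adjusted p = 0.878 and 0.746). EEFSEC was detected on only 4 of 9 arrays, so its difference was measured near background.

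**Figure D4:**
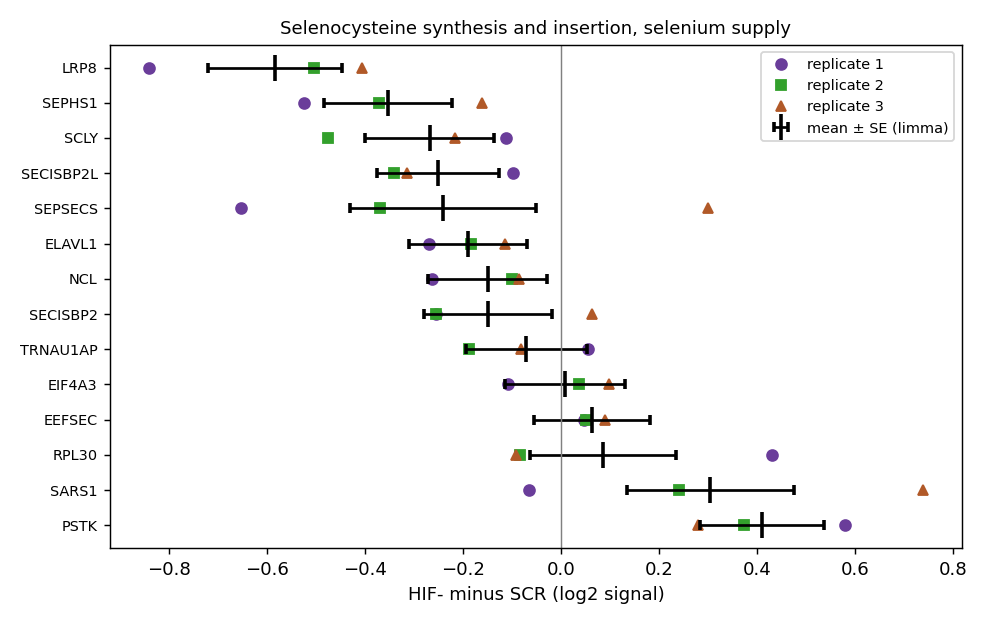
Difference of HIF- and SCR cells in log2 signal (x axis) for 14 genes of selenocysteine synthesis, insertion and selenium supply (y axis), with a symbol per replicate and the mean ± standard error from limma in black. LRP8 (mean -0.58) and PSTK (mean 0.41) are the ends of the range, and no gene passed an adjusted p under 0.05.

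Of the other human selenoproteins, 15 were listed, 14 were on the arrays and 11 in the fit. GPX6, DIO1, DIO3 and SELENOV were not detected on any array. No gene of this list passed limma (0 of 11, and 0 at an unadjusted p under 0.05), and no gene was called by the rank rule. The mean differences lay between -0.25 and 0.08. SELENOF, an ER protein that works with the glycoprotein folding sensor UGGT1, differed by -0.26, -0.17 and -0.18 (mean -0.20, SD 0.05, n = 3, adjusted p = 0.703 from limma), the narrowest spread of the list. SELENOM, another ER protein, was detected on 3 of 9 arrays and differed by 0.47, -1.08 and -0.14.

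Partners, substrates and relatives of the selenoproteins formed a list of 23 genes, with 21 on the arrays and 18 in the fit. No gene passed limma (0 of 18), and the rank rule called 0. At an unadjusted p under 0.05, 2 of the 18 were lower, against 504 lower of all 12195. SEL1L, part of an ER ubiquitin ligase complex, had the largest mean difference, -0.48 (adjusted p = 0.569 from limma), and was detected on 3 of 9 arrays. Its partner SYVN1, the ligase itself, had -0.37 (limma adjusted p = 0.559), and a second SYVN1 probe (ILMN_2339691), detected on 3 arrays, differed by 0.01, -0.07 and -0.11. DERL1, a channel protein that binds SELENOS, had -0.33 (limma adjusted p = 0.662). Its relative DERL2 and the ATPase VCP, which also binds SELENOS, had mixed signs and mean differences of -0.00 and -0.09. The thioredoxin-dependent peroxidase PRDX3 and the peroxidase PRDX6 had -0.20 and -0.19 (limma adjusted p = 0.709 and 0.703). Their relatives PRDX1 and PRDX4 had 0.09 and 0.02, with mixed signs. The mean differences of the list lay between -0.48 (SEL1L) and 0.32 (TXNIP), with a median of -0.07, against -0.01 over all genes.

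NRF2 (NFE2L2) and its targets, which include enzymes of the same redox pathways, formed a list of 8 genes with 7 in the fit. No gene passed limma (0 of 7) and the rank rule called 0. At an unadjusted p under 0.05, 1 of the 7 was higher, against 416 higher of all 12195. HMOX1, which breaks down heme, was above SCR in HIF- cells by 0.55, 0.23 and 0.75, with a mean of 0.51 (standard error 0.14, n = 3, adjusted p = 0.419 from limma). SRXN1, which repairs oxidized peroxiredoxins, and NQO1, a quinone reductase, had mean differences of -0.27 and -0.18 (limma adjusted p = 0.671 and 0.703). A second NQO1 probe (ILMN_2354953), detected on all 9 arrays, differed by -0.46, 0.08 and -0.36, so the NQO1 probes disagreed in replicate 2. The ends of the list were SLC7A11 (mean 0.57, detected on 7 of 9 arrays) and GCLM (mean -0.33), both with mixed signs. The median of the list was -0.15.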

How the data were processed

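Total RNA was measured on 9 BeadChip arrays. The authors deposited log2 signals, one column per array, labelled as not normalized, each with a detection p-value from the negative controls of the same array. Their methods name RMA and the beadarray package, and their separate processed log2 tables served as an alternative. Here the log2 signals were returned to the linear scale, corrected for background with limma's nec (limma 3.58.1 in R 4.3.3, offset 16), quantile-normalized within each array version and logged again. Technical arrays were averaged. Of 24525 probes shared by the versions, 14686 that reached the median of their array in at least 1 of the 6 samples were kept. The brightest probe of each gene, and probes without a gene name, gave 12195 tests, of which 11073 were named genes. Another 16 probes with different symbols in the 2 platform annotations were left unnamed.

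HIF- and SCR samples were compared with lmFit and eBayes, with replicate as a block, and p-values were adjusted over all 12195 tests (Benjamini-Hochberg). Both groups of a replicate lie on the same BeadChip, which is where the pairing comes from. Deviations from the group mean correlated between the samples of a replicate, at 0.623, 0.805 and 0.850 for replicates 1 to 3, to which a shared array version alone can lead. The rank rule of the methods scales fold changes with an error model cited but not described there. It was rebuilt here by dividing each fold change by the local spread (501 genes of like signal, a choice made here) and taking the top 10% in every replicate with 1 sign. The limma fit was tested on simulated data, and the other steps, the rank rule included, were not.

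The selenoproteins and all lists were chosen with earlier results of these data known. Named were all probes of the 10 genes, HIF1A and, of each list, genes past the test and up to 5 with the largest mean difference of 1 sign in all replicates. Other genes were named after their values were seen. SELENOP had no detected shared probe, so genes with a like pattern were not sought. TXNRD3, PRDX2, PRDX5 and HNF4A had no probe under these names and were not analysed here, and protein sequences were not used here. Promoters came from RefSeq (GRCh38.p14), and all 10 genes matched. Alternatives were no background correction, an offset of 50, median scaling, the processed values, no filter on dim probes, a detection filter, separate probes, first technical arrays only, no block, eBayes with a trend, leaving out a replicate, the t-test and rank rule of the methods, and an adjusted p under 0.1. The number of arrays and signal over background limit the precision. Detected probes made up 54.9% and 55.6% of the arrays of replicate 1 and 46.1% and 46.7% of those of replicate 2. On HumanHT-12 (replicate 3), which has more probes, they made up 33.6% to 36.1%.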

Additional observations from a re-analysis of the deposited data

How the results depend on the processing

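The count of calls among the selenoproteins in the fit was 0 under every alternative. Since these genes were chosen with their values known, that count is a description. The median of their mean differences kept its sign except without replicate 1 (range -0.07 to 0.17 with a replicate left out, against 0.07). TXNRD1, SELENOW, SELENOK and SELENOS changed sign under 1 of 13 alternatives each, and the others under none. The SELENOP difference in replicate 3, -1.66, was -1.39 with no background correction, -1.39 in the authors' processed values and -0.89 with an offset of 50, and leaving out a replicate has no meaning for a probe of replicate 3 alone. Over all genes, 14 calls (9 higher, 5 lower) became 3 with an offset of 50, 50 with median scaling (25 higher, 25 lower), 0 with no filter (1345 at an unadjusted p under 0.05), 9 with first technical arrays only, 40 at an adjusted p under 0.1 and 93 by the rank rule. The methods' t-test gave 116 unadjusted and 0 after Benjamini-Hochberg. Without the replicate block, which pairs the groups by their common BeadChip, limma called 2 with the array version as covariate and 2 with neither, and this changed no call in the lists. HIF1A lost its call there (limma adjusted p = 0.99996 and 0.783) and also with an offset of 50 (0.0662), with no filter (0.462) and without replicate 1 (0.0876), and kept it under the other 8 alternatives. With a replicate left out the count was 0 to 10 over the same probes (0 without replicate 1, 10 without replicate 2, 4 without replicate 3). With the probes filtered and chosen anew, an alternative added after seeing the data, it was 0 without replicate 1, 185 without replicate 2 and 67 without replicate 3. In the list of selenocysteine synthesis and selenium supply the count moved only under the rank rule, to 1 (LRP8). The cause of these changes was not tested.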
